A study of Mus musculus with 37 samples.

Results

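The Notch receptors and ligands were examined in the hippocampus of adult mice that had lost the histone demethylase Kdm1a from forebrain excitatory neurons. The 10 genes were Notch1, Notch2, Notch3 and Notch4 (receptors), Dll1, Dll3, Dll4, Jag1 and Jag2 (ligands) and Mfng (a Fringe glycosyltransferase), taken by name from the 48795 counted genes. All 10 passed the filter on low counts, which left 16799 tested genes. RNA was sequenced from the whole hippocampus of 3 male Kdm1a-ifKO mice and 3 male control littermates, with 1 library per mouse. The ifKO mice carried floxed Kdm1a alleles (Kdm1a f/f) and the Camk2a-creERT2 transgene, which expresses a tamoxifen-dependent recombinase under the Camk2a promoter, active in excitatory forebrain neurons. The controls lacked the recombinase, and both groups received tamoxifen as young adults on a C57BL/6J background; the age at dissection for these libraries is not given in the sources used here. Other cells of the tissue (interneurons, glia, vessels) keep the gene in the ifKO mice, and in such bulk samples fewer cells of a type and less RNA per cell cannot be told apart. The series also has 1 CTCF ChIA-PET library, made from sorted nuclei of hippocampal excitatory neurons of adult male mice labelled WT and treated with tamoxifen. These carried Camk2a-creERT2 and the CAG-Sun1/sfGFP reporter, which tags the nuclei to be sorted, and so differ in genotype from the controls of the RNA comparison.

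Notch signaling passes between touching cells. A Delta or Jagged ligand on one cell binds a Notch receptor on its neighbor, the receptor is cut by ADAM proteases and gamma-secretase, and its intracellular domain enters the nucleus, where it joins Rbpj and Maml proteins to switch on Hes and Hey genes. Fringe enzymes such as Mfng add sugars to the receptor and thereby shift its response from one class of ligand to the other. In the adult hippocampus the pathway is known for keeping the stem cells of the dentate gyrus quiescent, for astrocyte and vessel biology (Notch3 in mural cells, Notch4 and Dll4 in endothelium) and for a role in neuronal plasticity.

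The libraries held between 18985542 and 19469947 counts. Kdm1a itself had 1521, 1545 and 1481 counts in controls (replicates 1 to 3) and 764, 726 and 748 in ifKOs, a log2 fold change (log2FC, ifKO minus control) of -1.07 ± 0.06 (SE; adjusted p = 6.24e-08). The groups did not overlap, and every library matched its label. The first principal component (52.1% of the variance) separated the genotypes, and on the second (17.4%) control replicate 3 and ifKO replicate 2 stood apart from the other 4 libraries. Results that rest on them are therefore given without them too. All 8 listed markers of excitatory neurons, the cells in which Kdm1a was deleted, were detected in every library.

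The regions upstream of Dll3 and Jag2, the members called higher in ifKOs, and of Dll1, whose promoter is the end of one of the strongest CTCF loops described here, are shown first. Each is the run of 250 bases before the outermost annotated start of the gene (GENCODE M21 or RefSeq, GRCm38, read from the RefSeq assembly), printed 5′ to 3′ on the minus strand, which is the sense strand of all 3 genes. They lie at chr7:28302239-28302488 (Dll3), chr12:112929813-112930062 (Jag2) and chr17:15376933-15377182 (Dll1). Capitals mark matches to 2 motifs searched on both strands: TGGGAA, the core bound by Rbpj, and CACNAG, the N box bound by Hes repressors.
Dll3: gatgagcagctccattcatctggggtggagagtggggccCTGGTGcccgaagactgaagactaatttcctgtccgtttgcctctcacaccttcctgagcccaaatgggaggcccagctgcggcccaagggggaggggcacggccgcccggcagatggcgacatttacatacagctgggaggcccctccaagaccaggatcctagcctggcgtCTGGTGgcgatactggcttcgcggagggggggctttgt
Jag2: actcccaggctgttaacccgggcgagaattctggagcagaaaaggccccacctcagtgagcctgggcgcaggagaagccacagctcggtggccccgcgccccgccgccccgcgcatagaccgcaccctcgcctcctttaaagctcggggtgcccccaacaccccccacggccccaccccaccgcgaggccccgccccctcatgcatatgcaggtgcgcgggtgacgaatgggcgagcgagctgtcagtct
Dll1: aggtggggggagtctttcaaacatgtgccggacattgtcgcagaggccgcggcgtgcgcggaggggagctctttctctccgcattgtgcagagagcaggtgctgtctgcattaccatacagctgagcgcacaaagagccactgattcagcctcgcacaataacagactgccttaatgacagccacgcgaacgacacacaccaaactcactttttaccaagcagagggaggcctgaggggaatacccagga
The Dll3 region held the N box at 2 places, starting 211 and 38 bases before the start of the gene, and no TGGGAA. The Jag2 and Dll1 regions held neither motif. Over the corresponding 250 bases of 16731 tested genes, 36.4% held CACNAG and 20.9% held TGGGAA at least once. Of the other members, Mfng held TGGGAA at 2 places and Notch1 once. The N box was present in Notch1, Notch2, Notch3, Dll4 and Mfng. The Jag2 region was rich in CpG, with 22 against a median of 10 over these genes, and Dll3 had 11. This was not particular to Jag2: Jag1 also had 22 and Notch2 had 35, and neither was called. These matches describe the letters of the windows only.

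The genotype comparison asks which transcripts change when Kdm1a is lost from adult excitatory neurons. Of the 10 members, 2 were called higher in ifKOs (Dll3 and Jag2, both ligands) and none lower, at an adjusted p under 0.05 in edgeR's quasi-likelihood test. Over all tested genes 6.04% were called higher and 2.82% lower. Without adjustment, 6 members had a p under 0.05, as did 24.4% of all tested genes. Of the members' log2FC values, 9 of 10 were above 0, beside 49.1% over all tested genes. The exception was Notch2, which lay at -0.01 and moved to 0.02 under upper-quartile normalization. The median of the 10 was 0.23, beside -0.0034 for all tested genes. Of the members, 5 (Notch1, Dll3, Jag1, Jag2 and Mfng) had every ifKO library above every control library. That held for 15.7% of all tested genes, and the opposite order, which no member showed, held for 14.4%.

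**Figure D1:**
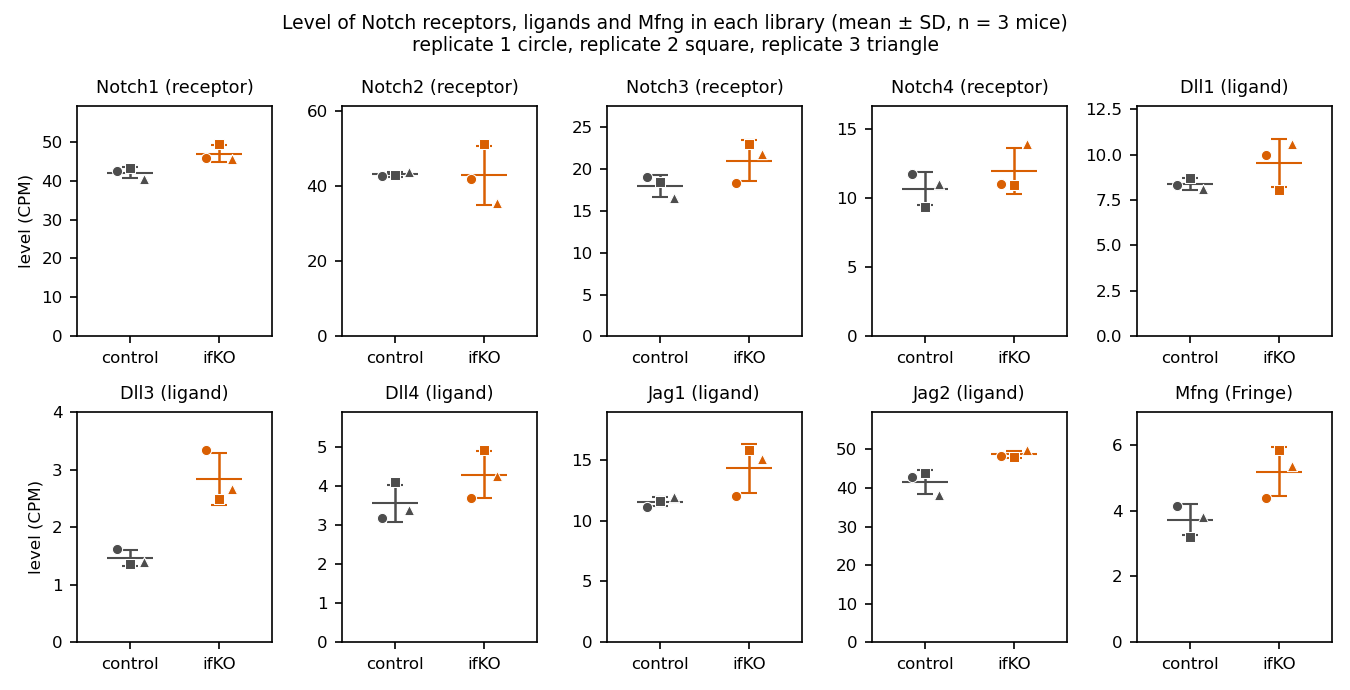
Level as CPM, counts scaled to a common library size, of each member in each of the 6 libraries, with control mice in grey and ifKO mice in orange; lines and bars give the mean and SD of 3 mice, and each axis starts at 0. The 3 Dll3 values of the ifKO mice (2.49 to 3.34 CPM) lie well above the controls (1.37 to 1.62 CPM), while the Notch2 ifKO values (35.5 to 51.1 CPM) lie on both sides of the controls.

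Dll3 (ENSMUSG00000003436, chr7:28293553-28302238, minus strand; all positions are of GRCm38) encodes a divergent Delta ligand, known to sit mainly inside the cell and to damp Notch activity in the same cell. It had 31, 26 and 26 counts in controls and 65, 49 and 52 in ifKOs, and no control reached any ifKO library. The level was 1.46 ± 0.14 CPM in controls and 2.83 ± 0.45 CPM in ifKOs (SD, n = 3 each), a log2FC of 0.95 ± 0.21 (SE, 95% CI 0.50 to 1.41; adjusted p = 0.0132), or 1.93-fold. This was the largest change among the members. It remained past the threshold in 12 of 13 alternative fits, including the one without both libraries that stand apart (log2FC 1.01, adjusted p = 0.0196). Without ifKO replicate 1, its highest library, the log2FC was 0.82 and the adjusted p 0.0652. Dll3 was the least abundant member in both groups, in CPM and per length, so each library's value rests on 26 to 65 reads.

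Jag2 (ENSMUSG00000002799, chr12:112907819-112929776, minus strand), a Jagged ligand, had 819, 835 and 708 counts in controls and 939, 946 and 970 in ifKOs. The ifKO libraries were tightly grouped and all above the controls, of which replicate 3 was the lowest. The level was 41.6 ± 3.09 CPM in controls and 48.7 ± 0.96 CPM in ifKOs, a log2FC of 0.23 ± 0.07 (95% CI 0.09 to 0.37), or 1.17-fold. Its adjusted p of 0.0482 was just inside the threshold. It was called in 3 of 13 alternative fits and in none of the 6 that left out 1 library, whose adjusted p ranged from 0.0611 to 0.173. The sign was the same in every alternative, with log2FC between 0.17 and 0.26.

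Jag1 (ENSMUSG00000027276, chr2:137081456-137116644, minus strand), the other Jagged ligand, had 213, 221 and 222 counts in controls and 234, 311 and 293 in ifKOs. All ifKO libraries were above the controls, although replicate 1 only slightly, and the log2FC of 0.31 ± 0.11 (95% CI 0.07 to 0.54) did not pass (adjusted p = 0.104). Without that replicate the log2FC was 0.42 and the adjusted p 0.0368. Dll1 (ENSMUSG00000014773, chr17:15367354-15376872, minus strand), a Delta ligand that activates Notch from neighboring cells, had 159, 166 and 151 counts in controls and 194, 159 and 206 in ifKOs. Its groups overlapped through ifKO replicate 2, the lowest of the 6 libraries in CPM, and its log2FC was 0.19 ± 0.12 (adjusted p = 0.382). Dll4 (ENSMUSG00000027314, chr2:119325784-119335962, plus strand), a Delta ligand of endothelium, had 61, 78 and 63 counts in controls and 72, 97 and 83 in ifKOs. These ranges overlapped too, with a log2FC of 0.27 ± 0.17 (adjusted p = 0.362) and a 95% CI of -0.10 to 0.64.

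Among the receptors none was called. Notch1 (ENSMUSG00000026923, chr2:26457903-26516663, minus strand), the receptor best known from neural stem cells, had 813, 824 and 751 counts in controls and 890, 973 and 885 in ifKOs. The ifKO libraries were all higher, by 11.5% (95% CI 1.58% to 22.3%), with an adjusted p of 0.139. Notch2 (ENSMUSG00000027878, chr3:98013527-98150361, plus strand), its close relative, had 814, 815 and 814 counts in controls and 813, 1007 and 691 in ifKOs. Its control libraries were, relative to their mean, the most alike of any member (SD 0.62 CPM), whereas the ifKO libraries spread over 35.5 to 51.1 CPM and left the mean nearly where it was (log2FC -0.01 ± 0.11; adjusted p = 0.98). The interval still allows a change of -16.9% to 19.1%.

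Notch3 (ENSMUSG00000038146, chr17:32120820-32166852, minus strand), the receptor of mural cells, had 364, 352 and 307 counts in controls and 356, 453 and 424 in ifKOs, with overlapping groups and a log2FC of 0.22 ± 0.10 (adjusted p = 0.174). Notch4 (ENSMUSG00000015468, chr17:34564268-34588503, plus strand), an endothelial receptor, had 224, 178 and 205 counts in controls and 214, 216 and 271 in ifKOs, a log2FC of 0.16 ± 0.12 (adjusted p = 0.457) in which ifKO replicate 3 alone exceeded all controls. Without that library the Notch4 log2FC was 0.04 (adjusted p = 0.916). Other annotated genes overlap the bodies of all 4 receptors and of Dll1, Dll4 and Jag2, and the strand setting of the counting is not stated in the sources used here, so reads of an overlapping gene could enter these counts. Dll3, Jag1 and Mfng overlap no other annotated gene.

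Mfng (ENSMUSG00000018169, chr15:78755882-78773475, minus strand), Manic Fringe, had 79, 61 and 71 counts in controls and 85, 115 and 104 in ifKOs. Every ifKO library was above the controls, and the log2FC of 0.48 ± 0.17 (95% CI 0.12 to 0.84) was the second largest among the members, with an adjusted p of 0.0961. It was not called in any of the 13 alternative fits, with adjusted p between 0.0733 and 0.269. The other Fringe genes, Lfng and Rfng, had log2FC values of 0.01 and 0.07 (adjusted p = 0.969 and 0.545).

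The highest library of a member was an ifKO library in each of the 10 cases. That library was ifKO replicate 2 for 6 of them (Notch1, Notch2, Notch3, Dll4, Jag1 and Mfng), ifKO replicate 3 for Notch4, Dll1 and Jag2, and ifKO replicate 1 for Dll3. The highest library was not counted over all tested genes, so these counts have no background and are a description only. Without control replicate 3 and ifKO replicate 2, Dll3 was the member called, and the log2FC was 0.09 for Notch1, -0.14 for Notch2, 0.10 for Notch3, 0.13 for Dll4, 0.26 for Jag1 and 0.41 for Mfng. In the same fit the log2FC was 0.18 for Jag2 (adjusted p = 0.0969), 0.25 for Notch4 and 0.27 for Dll1.

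Levels were compared between members per transcript length, as TPM, in which counts are divided by a gene's total exon length and then scaled to a common library sum. In controls the order was Jag2 (23.7 ± 1.83 TPM, SD, n = 3), Notch2 (15.9 ± 0.17), Notch1 (11.7 ± 0.45), Notch3 (8.85 ± 0.69), Dll1 (7.90 ± 0.30), Jag1 (7.88 ± 0.24), Notch4 (5.27 ± 0.61), Mfng (5.20 ± 0.67), Dll4 (3.67 ± 0.49) and Dll3 (2.04 ± 0.20). The ranges of Notch3 and Dll1 overlapped, as did those of Dll1 and Jag1 and of Notch4 and Mfng, so those neighbors are not ordered by these data. Every other pair of neighbors was separated in all 3 control libraries. Jag2 was the only member above the median of all tested genes in controls (17.6 TPM), and Dll3 was lower than all but 12.5% of them. With the length of the longest transcript in place of the summed exons, Notch1 (13.8 TPM) came before Notch2 (12.8 TPM).

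Jag2 made up 52.4% ± 1.67 of the summed ligand TPM in controls, and 50.6% ± 0.67 in ifKOs. Dll3 went from 4.51% ± 0.48 of the ligand sum in controls to 7.21% ± 1.28 in ifKOs. The ligand sum itself was 45.2 ± 2.27 TPM in controls and 55.2 ± 1.57 TPM in ifKOs, and the receptor sum was 41.7 ± 1.06 and 45.4 ± 4.06 TPM. By summed exon length, Notch2 gave the largest part of the receptor sum, 38.0% ± 1.32 in controls and 34.9% ± 4.16 in ifKOs; by the longest transcript Notch1 was above it in controls. Mfng was the smallest of the Fringe genes, with 3.31% ± 0.37 of their summed TPM in controls and 4.39% ± 0.52 in ifKOs.

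**Figure D2:**
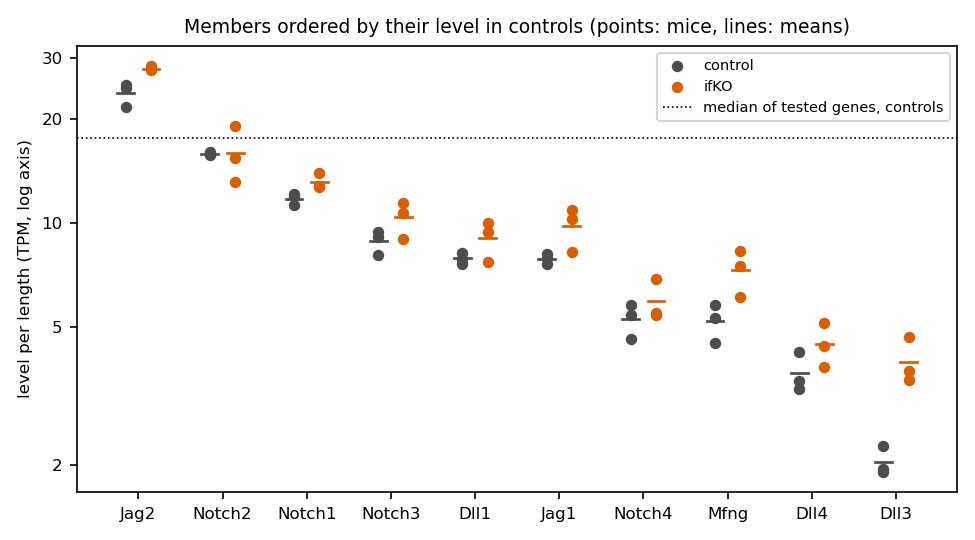
TPM of the 10 members in each control (grey) and ifKO (orange) mouse on a log axis, ordered from left to right by the mean level in controls; points are mice, lines are means and the dotted line is the median of all tested genes in controls. Jag2 is the one member above that line in controls, and Dll3, the last, is the member whose groups are farthest apart.

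The genes whose pattern over the 6 libraries was most like that of Dll3 were Clec18a, Prcd and Tnfrsf8. Their root mean square difference from Dll3 in centered log2 CPM was 0.05 for Clec18a and Prcd and 0.08 for Tnfrsf8. Clec18a, for instance, had 88, 83 and 76 counts in controls and 175, 135 and 154 in ifKOs. Like Dll3, each of them was highest in ifKO replicate 1, next in replicate 3 and then in replicate 2.

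The rest of the pathway was read from a list of 54 genes by role, of which 51 were tested. Of these, 6 were called higher and 3 lower in ifKOs, or 11.8% and 5.88% of those tested beside 6.04% and 2.82% of all genes. The median log2FC of the list was 0.01. Without ifKO replicate 1, 3 were called higher and 1 lower, and without ifKO replicate 3, 3 were called higher and none lower. Calls over all tested genes fell in these fits too, from 1014 higher and 473 lower to 735 and 164 without ifKO replicate 1. Without ifKO replicate 3 they were 646 and 137, so the loss was not limited to the pathway genes.

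The proteins that act on ligands and on receptor turnover gave 3 of the calls, all higher, out of 10 genes. Of these 10, 7 had a log2FC above 0. Mib1 and Itch, named after their values were seen, went the other way without a call (log2FC -0.18 and -0.17, adjusted p = 0.19 and 0.156). Neurl1a, an E3 ligase that drives uptake of ligands, had 3812, 3889 and 3489 counts in controls and 5149, 4906 and 5372 in ifKOs, and no library of one group reached the other. Its log2FC was 0.42 ± 0.06 (adjusted p = 0.000352), and it was called in all 13 alternatives. Dtx1 and Dtx4, Deltex E3 ligases that bind the receptor, rose by less, with log2FC of 0.20 and 0.21 (adjusted p = 0.0257 and 0.0336). Each was called in 8 of 13 alternatives. Dtx1 lost its call without control replicate 2 or any ifKO library, and Dtx4 without control replicate 1 or 2 or ifKO replicate 1 or 3 (adjusted p up to 0.0974 and 0.122).

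Of 10 genes of receptor cleavage, 1 was called, Aph1b, a gamma-secretase subunit, with a log2FC of -0.33 ± 0.09 (adjusted p = 0.0359). Its control replicate 1 (640 counts) lay closer to the ifKO libraries (595 to 625) than to the other controls (778 and 812). It was called in 6 of 13 alternatives. Among the fits with 1 library left out it was called only without control replicate 1 (log2FC -0.44), with adjusted p up to 0.105 in the others, and without both libraries that stand apart the log2FC was -0.24 (adjusted p = 0.11). Aph1c is a near-identical copy of Aph1b, so reads may be split between them. The log2FC values of the other 9 genes, Adam10, the presenilins and nicastrin among them, lay between -0.15 and 0.07.

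In the nucleus, Rbpj, the DNA-binding partner of all Notch receptors, had 250, 274 and 285 counts in controls and 230, 227 and 251 in ifKOs. Every ifKO library was below every control library in CPM, and the log2FC of -0.24 ± 0.10 did not pass (adjusted p = 0.145). Its paralog Rbpjl, which does not bind Notch and is known from the pancreas, rose from 25, 24 and 20 counts to 44, 53 and 60, a log2FC of 1.14 ± 0.22 (adjusted p = 0.00582). The groups were well separated, and Rbpjl was called in all 13 alternatives. Other annotated genes overlap Rbpj and Rbpjl, as they do Neurl1a, Fbxw7, Hes5 and Hes7. With the strand setting of the counting not stated, reads of those genes could enter these counts. Rbpj has processed pseudogene copies in the mouse, so its counts depend on the filter on mapping quality.

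The list of Hes and Hey genes holds the classical Notch targets, and also Hes6, which is known to be induced by proneural factors and not by Notch. On this list 6 of 7 tested genes had a positive log2FC, with a median of 0.33, and 2 were called. Hes6, a proneural-type Hes protein that opposes Hes1, had 192, 176 and 180 counts in controls and 295, 269 and 262 in ifKOs. With a log2FC of 0.55 ± 0.10 (adjusted p = 0.0032) it was called in all 13 alternatives. Hes7, the oscillating repressor of the somite clock, had 15, 18 and 15 counts in controls and 44, 28 and 32 in ifKOs, a log2FC of 1.06 ± 0.27 (adjusted p = 0.0274). It was called in 6 of 13 alternatives. Among the fits with 1 library left out it was called only without ifKO replicate 2 (1.20), and without ifKO replicate 1 it was lowest (0.85, adjusted p = 0.126).

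The targets usually read as a sign of Notch activity were not called. Hes1 had 227, 167 and 196 counts in controls and 255, 260 and 249 in ifKOs, with no overlap and a log2FC of 0.33 ± 0.11 (adjusted p = 0.0926). Hes5 had 56, 67 and 38 counts in controls and 83, 78 and 89 in ifKOs, again without overlap, and a log2FC of 0.59 ± 0.20 (adjusted p = 0.0826). Each was past the threshold in 2 of 13 alternatives, which were no filter on low counts and, for Hes1, leaving out control replicate 1 (adjusted p = 0.0413) or, for Hes5, control replicate 2 (adjusted p = 0.0482). Without control replicate 2 the log2FC of Hes1 was 0.21 (adjusted p = 0.307), and without control replicate 3 that of Hes5 was 0.41 (adjusted p = 0.23). Without both libraries that stand apart the log2FC was 0.33 for Hes1 (adjusted p = 0.161) and 0.46 for Hes5 (adjusted p = 0.184). Hey1 (log2FC -0.04), Hey2 (0.16) and Heyl (0.13) had adjusted p values of 0.717, 0.636 and 0.725. Hey2 was below 0 without ifKO replicate 3 (-0.03), and Heyl without ifKO replicate 2 (-0.11). Hes2 had no count in any library, and Hes3 had at most 1.

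Inhibitors inside the cell and ligands outside the Delta and Jagged families gave 2 calls, both lower. Fbxw7, the ligase that marks the Notch intracellular domain for destruction, had 3518, 3482 and 3714 counts in controls and 3107, 3182 and 2999 in ifKOs. No library overlapped, the log2FC was -0.25 ± 0.05 (adjusted p = 0.00981), and it was called in 12 of 13 alternatives, the exception being the fit without ifKO replicate 3 (adjusted p = 0.061). Cntn1, an axonal adhesion protein described as a Notch ligand, had a log2FC of -0.26 ± 0.06 (adjusted p = 0.0235). It was called in 10 of 13 alternatives, and its call was lost without ifKO replicate 1 or 3 (adjusted p = 0.0791 and 0.114) and with the replicate block (adjusted p = 0.0556). The 5 genes of the Fringe and O-glycosyltransferase list that are not members gave no call, and their log2FC values lay between -0.12 and 0.07.

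**Figure D3:**
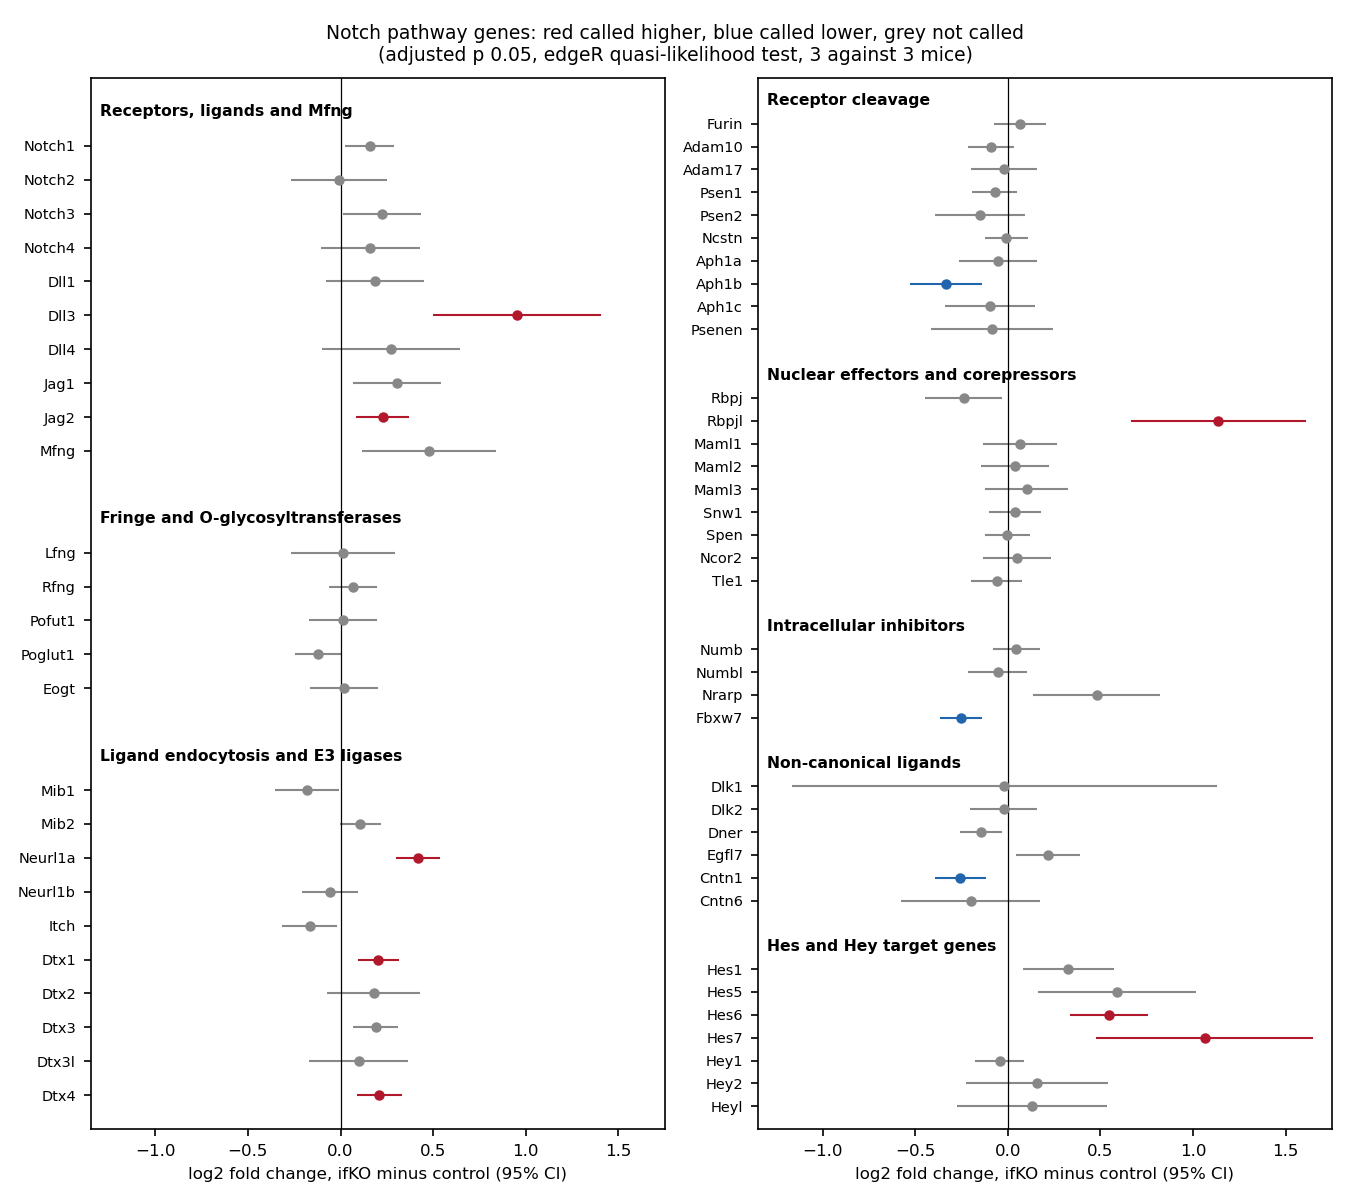
log2FC (ifKO minus control, x axis) with its 95% confidence interval for the 10 members and the 51 tested pathway genes, grouped by role; red is called higher, blue called lower and grey not called. The cleavage genes cluster near 0, whereas Dll3, Rbpjl and Hes7 reach log2FC values near 1 with wide intervals.

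Markers of other cells moved in the same libraries. Of 8 microglial markers all were above 0 in log2FC and 3 were called higher (Cx3cr1, Csf1r and Tmem119), with a summed level of 0.95 to 1.04 times the control mean in controls and 1.09, 1.25 and 1.40 times in ifKO replicates 1 to 3. Of 8 astrocyte markers, all were above 0 and 2 were called higher (Sox9 and Slc1a3), with sums of 0.95 to 1.08 in controls and 1.05 to 1.11 in ifKOs. The mural list stood at 1.40 in ifKO replicate 2, beside 0.98 and 0.99 in the other ifKOs, and the endothelial list at 1.16 beside 0.94 and 0.98. In that library 6 members were at their highest, Notch3 and Dll4 among them, while Notch4 was not (10.97 CPM, beside 13.9 CPM in ifKO replicate 3). Of the mural list 1 of 8 was called (Pdgfrb, higher), and of the endothelial list none of 8.

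The neurogenic lineage list, meant to mark the stem cells and young neurons of the dentate gyrus, had 6 of 8 genes tested and 2 called higher (Neurog2 and Igfbpl1). Its sum was 0.93 to 1.045 in controls and 1.046, 1.059 and 1.17 in ifKOs. Of the 6 tested genes, 5 had a log2FC above 0, and Dcx, a marker of young neurons, went the other way (-0.41, adjusted p = 0.263). Calb2, the most abundant gene of the list, had a mean of 32.9 CPM in controls and 41.4 CPM in ifKOs (adjusted p = 0.134). It therefore weighs most in the sum, which does not read the genes of the list equally. Dcx and Calb2 are named after their values were seen. Among excitatory markers Neurod6 was called lower, and the sums of the list were 0.97 to 1.04 in controls and 0.96 to 1.05 in ifKOs. Among interneuron markers 2 of 8 were called lower (Npy and Vip), with sums of 0.97 to 1.04 and 0.93 to 0.97. Oligodendrocyte, oligodendrocyte precursor and ependymal lists gave no call among 8, 6 and 6 genes, and their ifKO sums were 0.88 to 1.15, 1.02 to 1.14 and 0.75 to 1.15. Of the choroid plexus list Kl was called higher among 5 tested, and the sum was 0.82 to 1.36 in controls and 1.44 to 1.62 in ifKOs. Kl alone carried that difference (log2FC 1.27, adjusted p = 1.32e-07), whereas 3 of the other 4 tested genes had a log2FC below 0 and the median of the list was -0.54. No marker was at 0 in any library, apart from 1 gene of the neurogenic list in ifKO replicate 2. With no filter on low counts, 21 markers were called in place of 13, and without control replicate 2, 8. The part of these cells in the members' values was not tested.

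**Figure D4:**
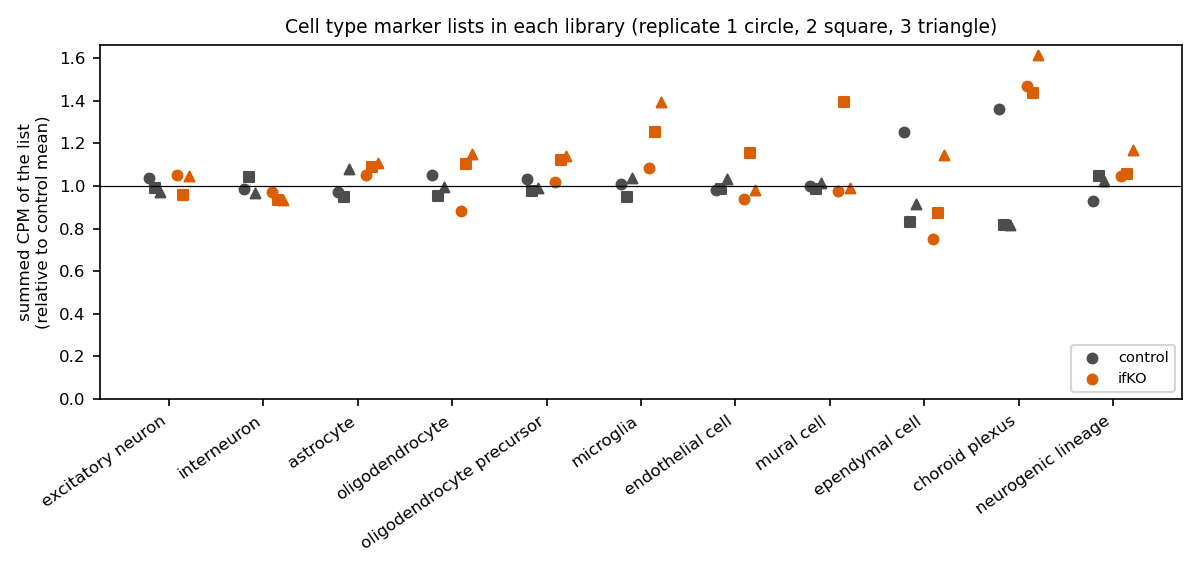
Summed CPM of each cell type marker list in each library, divided by the control mean (y axis, from 0), with controls in grey and ifKOs in orange. The microglial list is above 1 in all ifKO libraries, as are the astrocyte, oligodendrocyte precursor, choroid plexus and neurogenic lists. The mural list is raised in ifKO replicate 2 alone.

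CTCF is a DNA-binding protein that, with cohesin, holds distant sites together in chromatin loops. ChIA-PET counts the paired-end tags (PETs) that join 2 CTCF-bound anchors, and the 27786 loops of the single library, each with at least 3 PETs, describe excitatory neurons with intact Kdm1a only. A loop was assigned to a member when an anchor lay within 10 kb of the gene body. Of the 10 members 8 had such a loop, beside 56.9% of tested genes, and Notch1 and Notch2 had none. With no replicate and no ifKO library, these are descriptions and no test is possible.

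Dll1 and Notch4 had the strongest loops. The anchor at Dll1 (chr17:15375938-15379376) covers its upstream region shown above and is joined by 59 PETs to a site 312 kb away inside Ermard, and 2.75% of all loops had at least 59. The strongest loop at Notch4 had 67 PETs over 117 kb, between an anchor upstream of the gene (chr17:34554089-34560605) and one at BC051142. Neither Ermard (log2FC -0.01) nor BC051142 (0.28) was called. Apart from the partner genes of Dll3 and Jag2, those given values here were chosen after these were seen. Mfng had loops of 35 and 21 PETs, whose near anchors lie beyond its 3′ end and whose far anchors lie at Cyth4, expressed in microglia and in blood-derived cells. Another loop, of 4 PETs, reaches Rac2. Cyth4 had a log2FC of 0.32 ± 0.07 (adjusted p = 0.0111) and Rac2 of 0.46 ± 0.19 (adjusted p = 0.162).

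Dll3 had 4 loops with 24 PETs in all, and all 4 near anchors lie inside the gene body, between 2.79 and 4.41 kb from its start. The strongest, with 12 PETs over 149 kb, joins chr7:28296800-28298850 to a site in 9530053A07Rik, which had 2 to 6 counts in every library and was not tested. A loop of 3 PETs reaches Psmc4, a proteasome subunit (log2FC 0.03, adjusted p = 0.827). Jag2 had 2 loops, of 7 and 3 PETs, and both near anchors cover its start and the upstream region shown above. They reach sites near Gpr132 and Nudt14 (Gpr132 had 7 counts in all controls together and was not tested, Nudt14 had an adjusted p of 0.39). Dll4 had 4 loops of 3 to 7 PETs, of which 1 joins both ends of its own neighborhood, Notch3 had 2 of 3 PETs each, and Jag1 had 1 of 4 PETs over 828 kb.

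The CTCF core motif CCANNAGNNGGC, searched on both strands, was present in 39.5% of the 55480 distinct anchors. It is shown for the anchors of 3 members, printed on the strand of the match with 15 bases on either side and the motif in capitals, to show the letters at the anchors of the strongest loops and of a member called higher. Matches were also present at 2 further places in the same Notch4 anchor and in far anchors of Notch4, Jag1 and Dll4 loops. They come from the strong anchor upstream of Notch4 (chr17:34555655-34555696, minus strand), the anchor beyond Mfng (chr15:78744416-78744457, minus strand) and the far anchor of the stronger Jag2 loop, near Gpr132 (chr12:112875733-112875774, plus strand).
Notch4: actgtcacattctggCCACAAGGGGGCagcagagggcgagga
Mfng: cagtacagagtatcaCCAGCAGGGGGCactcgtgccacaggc
Jag2: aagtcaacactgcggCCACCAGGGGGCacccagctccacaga
The anchors in Dll3, at the Dll1 start and at the Jag2 start held no match to these letters.

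**Figure D5:**
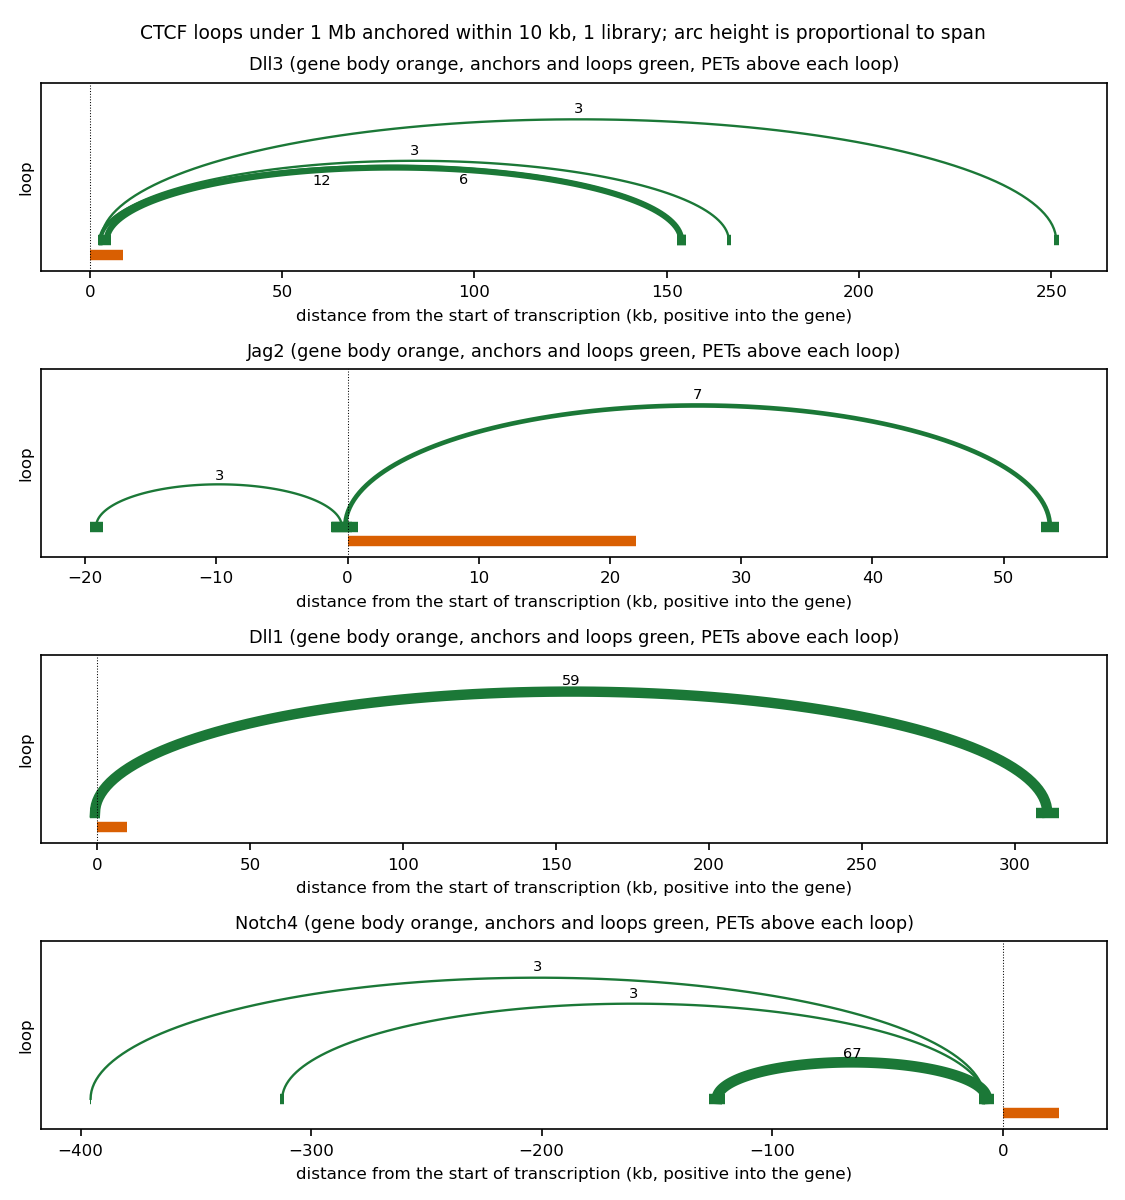
CTCF loops anchored within 10 kb of Dll3, Jag2, Dll1 and Notch4 in the single library, drawn as arcs over the distance from each gene's start (kb, x axis), with the PETs of each loop beside it; 1 loop of Notch4 longer than 1 Mb is left out. The near anchors of Dll3 lie within its body, those of Jag2 and Dll1 cover the start, and those of Notch4 lie upstream.

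Around the members, 55 tested neighbors lay within 100 kb, of which 6 were called higher (10.9%, beside 6.04% of all tested genes) and none lower. They are named here after their values were seen. Selenov, a selenoprotein gene that begins 2.37 kb beyond the 3′ end of Dll3 on the same strand, had 9, 9 and 7 counts in controls and 37, 34 and 34 in ifKOs, a log2FC of 2.01 ± 0.28 (adjusted p = 0.000486). Spint1, a protease inhibitor 76.3 kb from Dll4 and at the far anchor of a Dll4 loop of 3 PETs, had 39, 52 and 53 counts in controls and 635, 656 and 683 in ifKOs (log2FC 3.73 ± 0.11; adjusted p = 1.52e-10). The remaining 4 were Card10 beside Mfng (log2FC 1.05), Agpat2 near Notch1 (1.50), Tnxb near Notch4 (0.93) and Zfp36 near Dll3 (0.59).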

How the data were processed

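Hippocampal RNA of 3 control and 3 Kdm1a-ifKO mice was analysed together with 1 CTCF ChIA-PET library. Per the study's methods and the submitters' processing notes, the authors trimmed single-end poly-A reads (cutadapt 1.18), aligned them to mm10/GRCm38 (HISAT2 2.1.0), filtered them on mapping quality and counted the rest for each gene (HTSeq 0.11.1; strand setting not given in the sources used here). The deposited values are raw counts. The authors made the deposited loop file with ChIA-PIPE, where a loop's value is its count of PETs; depth before loop calling is not known from it.

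Here, edgeR 4.0.16 (R 4.3.3; filterByExpr, TMM, robust quasi-likelihood F test, two-sided, genotype as factor) was fitted over all genes with Benjamini-Hochberg adjustment at 0.05, and checked on simulated data. CPM uses TMM library sizes and TPM summed GENCODE M21 exon lengths; 99.1% of counted genes matched that annotation. DESeq2 1.42.0, other normalizations and filters, a replicate block and leaving out libraries were alternatives, and leaving out control replicate 3 with ifKO replicate 2 was added after seeing the data. Sequences were read with Python 3.11.15 from the RefSeq assembly. Named genes are all members, called pathway genes, the Hes, Hey, Rbpj and Fringe genes, Kdm1a, up to 3 called markers per list, the 3 genes most like Dll3, and genes at far anchors of loops of called members; others are said to be chosen later. The members and lists were chosen with earlier results of these data known. Some results on single genes are not reported here.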

Additional observations from a re-analysis of the deposited data

How the results depend on the processing

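The count of members called higher was 2 in the reported fit. It was 1 with DESeq2, 1 with a filter of at least 10 counts in total, 1 with the replicate block, 1 in each of the 6 fits that left out one library (range 1 to 1; Dll3 in 5 of them and, without ifKO replicate 1, Jag1), 1 without control replicate 3 and ifKO replicate 2 together, and 3 with no filter on low counts (Jag1 added). No alternative called a member lower. Pathway genes called higher were 6, with 9 when no filter was used, 3 with the replicate block and 3 to 6 with one library left out; those called lower were 1 with the block and 0 to 3 with one library left out. Cell type markers called were 13, with 21 when no filter on low counts was used and 8 to 14 with one library left out. Over all tested genes, 473 were called lower, with 1090 when no filter was used, 249 with the replicate block, 164 without ifKO replicate 1 and 137 without ifKO replicate 3; those called higher were 1014, with 1447 when no filter was used, 797 under the block and 646 without ifKO replicate 3. The numbers do not pair the libraries: the deviations of same-numbered libraries from their group means correlated at r = -0.05, -0.12 and -0.17, and no library correlated best with its own number. With loops of at least 5 PETs 6 of 10 members had an anchored loop, beside 8 in the report, and 7 did with either a 5 kb limit or starts only. Dll3 and Hes7 had at most 65 counts in any library. Dll3 was called in 12 of 13 alternatives and lost its call only without ifKO replicate 1. Hes7 was called in 6 of 13. Among the fits with 1 library left out, Hes7 kept its call only without ifKO replicate 2. The cause of these changes was not tested.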
